A study of Mus musculus with 15 samples.

Results

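The genes described here encode the proteins of the cytosolic ribosome. They were chosen by name, as all non-control probes of the array whose gene name is that of a small subunit protein (Rps and a number), a large subunit protein (Rpl and a number) or a stalk protein (Rplp0, Rplp1 and Rplp2). There were 79 such genes among 27939 names on the array, with 132 probes, and all 79 were among the 20518 genes tested. Of these, 30 belong to the small subunit, 42 to the large subunit and 3 to the stalk, and 4 are paralogs that can stand in for a core protein or resemble one (Rpl7l1, Rps27l, Rpl22l1 and Rpl3l). Where several probes carry a gene's name, the one with the highest mean signal stands for the gene, a choice made without regard to group.

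Ovariectomized CD-1 mice, which lack the main source of oestrogen, were injected with 250 ng of E2 or of E3 in 100 µl of saline, or with the saline alone, and RNA of the uterus was hybridised to one-colour Agilent mouse arrays. The 5 groups were E2 collected at 24 h, E3 at 24 h, E2 at 2 h, E3 at 2 h, and vehicle, with 3 arrays in each. E2 and E3 are read here as estradiol and estriol, which has 1 more hydroxyl group, on the D ring. The labels do not give the collection time of the vehicle uteri, and they do not say whether the arrays of a group came from separate animals, so p-values measure only the spread between these arrays, which may be technical.

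A ribosome holds about as many copies of each of its proteins, and most of these genes are transcribed at high and similar rates in growing cells. Their messenger RNAs typically begin with a cytosine followed by a run of pyrimidines, the 5′ terminal oligopyrimidine (TOP) tract, through which growth signals by way of mTOR control their translation. In the rodent uterus, oestrogen first brings water and blood cells into the tissue and later growth and cell division, and ribosome production is part of that growth.

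The start of the gene is shown for 6 members because the TOP tract lies there and because the 3 paralogs printed are those that changed on the arrays. Each window holds 20 bases before the annotated start and 25 from it on, from RefSeq (GRCm38.p6), and the longest run of C and T within the stretch of 5 bases before to 15 after the start is in capitals. A run can go on outside that stretch, as the one of Rpl14 does on its 5′ side.
Rps6, chr4:86857343-86857387, minus strand: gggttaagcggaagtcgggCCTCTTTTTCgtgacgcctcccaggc
Rps27, chr3:90213624-90213668, minus strand: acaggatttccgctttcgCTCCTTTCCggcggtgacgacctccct
Rpl14, chr9:120571497-120571541, plus strand: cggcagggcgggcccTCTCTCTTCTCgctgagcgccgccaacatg
Rpl22l1, chr3:28805488-28805532, plus strand: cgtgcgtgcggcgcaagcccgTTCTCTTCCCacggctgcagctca
Rps27l, chr9:66946066-66946110, plus strand: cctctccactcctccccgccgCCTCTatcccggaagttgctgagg
Rpl7l1, chr17:46782632-46782676, minus strand: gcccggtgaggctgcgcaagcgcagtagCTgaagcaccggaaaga
The run was 10 bases in Rps6, the substrate of the S6 kinases, and 2 bases in Rpl7l1. RefSeq windows were found for 59 of the 79 genes, 70 windows in all. A C at the annotated start that opens a run of at least 5 C or T was present in 18.6% of the 70 windows, against 2.50% of all 32841 windows in the table. A run of at least 8 C or T within 5 bases before to 15 after the start was present in 30% of the member windows, against 6.68% of all. Over the full 300 bases, the palindromic oestrogen response element (GGTCA, a spacer of any 3 bases and TGACC, the same on both strands) was present in 0 of the 70 member windows, against 0.07% of all windows. Its arm GGTCA, on either strand, was present in 44.3% of member windows and 40.5% of all windows. The E-box CACGTG, the sequence bound by Myc, was present in 8.57% of member windows and 7.15% of all.

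The 75th percentile of the processed signal ranged from 1053 to 1854 units, and 63.7% to 80.3% of probes were well above background. The scanner read bright spots from a second scan at low gain and scaled them up by a slope of 9.99 to 10.1. Of the 79 genes, 73 were read from that scan on all 15 arrays, as were 618 other genes, which are called the other bright genes below. No member spot was saturated, and 78 of the 79 genes were well above background on all arrays, the exception being Rpl3l. Ribosomal protein genes have many pseudogenes of near-identical sequence, and whether a probe also binds their RNA was not tested. All 5 genes that mark the uterus (Esr1, Pgr, Hoxa10, Hoxa11 and Wnt7a) were among those tested. Against vehicle, 0 rose and 3 fell at 24 h with E2, 0 rose and 2 fell at 24 h with E3, 1 rose (Pgr) and 2 fell at 2 h with E2, and 1 rose (Pgr) and 3 fell at 2 h with E3. The 3 vehicle arrays shared 1 of the 6 slides and no other group was on it, so slide and vehicle cannot be told apart in any comparison with vehicle.

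Levels are given below as log2 of the signal relative to the array's 75th percentile, so that 0 is the level of a probe at that percentile. Changes are differences of group means on this log2 scale, with their standard error (SE). Adjusted p-values come from limma fitted to all 15 arrays and are adjusted over the 20518 genes, and a gene is said to rise or fall where the adjusted p is under 0.05. Since whole uterus was sampled, more RNA per cell and more cells of a type cannot be told apart in any of these values.

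At 2 h after injection none of the 75 core genes was called, 0 of 75 with E2 and 0 of 75 with E3, and the 2 genes that rose with each oestrogen were the paralogs Rpl7l1 and Rps27l. Among all genes tested at that time, 15.5% were called higher and 23.1% lower with E2, and 16.5% higher and 23.6% lower with E3. The median change of the 79 genes was −0.13 with E2 and −0.06 with E3, beside medians over all genes tested of −0.14 and −0.16. With array medians as the scale in place of the 75th percentile the members' medians at 2 h turned to 0.04 and 0.17. At an unadjusted p under 0.05 (limma), 3 members passed with E2 and 2 with E3, beside 9661 and 9915 of all 20518 genes.

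Rpl7l1, a paralog of Rpl7 that is found with assembling large subunits in human cells, was the gene with the largest rise at 2 h among the 79. Its probe lies at chr17:44903793-44903852 on the minus strand (mm7, as the files give positions). Its level was 2.67, 2.97 and 2.91 at 2 h after E2 and 2.93, 2.99 and 2.97 at 2 h after E3, against 2.03, 1.72 and 1.90 with vehicle. Every oestrogen array at 2 h lay above every vehicle array. The change was 0.97 ± 0.13 (SE) with E2 (limma, adjusted p = 9.66e-05) and 1.08 ± 0.13 after E3 (adjusted p = 4.18e-05). The 2 h rise was called under all 21 settings, the reported one included, between 0.77 and 1.15 with E2 and between 0.89 and 1.32 with E3.
At 24 h the level of Rpl7l1 was 2.48, 2.38 and 2.24 after E2 and 1.94, 2.25 and 1.91 after E3. The E2 arrays still lay above the vehicle arrays, by 0.49 ± 0.13 (adjusted p = 0.0091), while the E3 arrays overlapped them, with a change of 0.15 ± 0.13 (adjusted p = 0.419). At 24 h against 2 h the gene fell by 0.48 after E2 (adjusted p = 0.00706) and by 0.93 after E3 (adjusted p = 0.000111), the only one of the 79 to fall in either of these comparisons.
A second probe for Rpl7l1 also rose at 2 h, by 0.56 after E2 (adjusted p = 0.00211) and 0.70 after E3 (adjusted p = 0.00043), but its level after E2 was no lower at 24 h than at 2 h. It read 0.54, 0.25 and 0.41 at 24 h after E2, −0.33, 0.03 and −0.22 at 24 h after E3, 0.08, 0.17 and 0.16 at 2 h after E2, 0.29, 0.23 and 0.32 at 2 h after E3, and −0.43, −0.51 and −0.34 with vehicle. The probes thus share the early rise and differ on the fall with E2, for which the second probe gave a change of 0.26 ± 0.12 (adjusted p = 0.0742).

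Rps27l, a paralog of Rps27 and a p53 target in human cells, had its highest levels at 24 h after E2. Its probe spans chr9:66979145-66980835 (mm7, plus strand), more than its own length, as a probe across a skipped stretch does. The levels were 5.96, 5.85 and 5.70 at 24 h after E2, 5.14, 5.43 and 5.46 at 24 h after E3, 5.09, 4.95 and 4.98 at 2 h after E2, 5.23, 4.95 and 5.19 at 2 h after E3, and 4.69, 4.64 and 4.66 with vehicle. All 12 oestrogen arrays lay above all 3 vehicle arrays, and the 24 h E2 arrays lay above all others. At 24 h the gene rose by 1.18 ± 0.12 after E2 (adjusted p = 2.89e-05) and by 0.68 ± 0.12 after E3 (adjusted p = 0.00536). The E2 rise at 24 h was called under all 21 settings, at 0.67 to 1.39, and the E3 rise under 18 of 21, failing with quantile normalization, without scaling and in a fit of the compared groups alone. At 2 h the rise was 0.35 ± 0.12 after E2 (adjusted p = 0.036) and 0.46 ± 0.12 after E3 (adjusted p = 0.00816). The E2 call at 2 h held under 9 of 21 settings, and leaving out any of the arrays compared took it away, with a highest adjusted p of 0.102. Its partner Rps27, a core protein of the small subunit, changed at 24 h by −0.15 ± 0.25 after E2 (adjusted p = 0.661) and by 0.25 ± 0.25 after E3 (adjusted p = 0.5), with neither called.

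Rpl22l1, a paralog of the RNA-binding protein gene Rpl22, overlapped vehicle at 2 h and was higher at 24 h after E2. Its probe lies at chr3:28622984-28623043 (mm7, plus strand). It read 6.12, 6.18 and 6.23 at 24 h after E2 and 5.69, 5.89 and 5.96 at 24 h after E3, against 5.56, 5.24 and 5.59 with vehicle. The rise with E2 was 0.71 ± 0.13 (adjusted p = 0.00091), and the change with E3 was 0.38 ± 0.13, which missed the threshold (adjusted p = 0.0529). The call with E2 held under 17 of 21 settings. At 2 h the changes of this probe were −0.01 and 0.01. A second probe for Rpl22l1 gave rises at 2 h of 1.10 after E2 (adjusted p = 0.0126) and 0.84 after E3 (adjusted p = 0.0435). Its changes at 24 h were −0.15 (adjusted p = 0.712) and −0.88 (adjusted p = 0.0552). This second probe is dim, at −5.94, −5.54 and −6.24 with vehicle and −4.48, −4.99 and −4.95 at 2 h after E2.
The probe that represents its partner Rpl22 rose by 0.50 ± 0.14 with each oestrogen at 24 h (adjusted p = 0.0115 with E2 and 0.0282 with E3), called under 17 of 21 settings with E2 and under 8 of 21 with E3. A second probe for Rpl22 read 4.03, 4.02 and 3.54 at 24 h after E2 and 4.37, 4.27 and 4.33 at 24 h after E3, against 4.56, 4.74 and 4.55 with vehicle. It fell at 24 h by 0.75 after E2 (adjusted p = 0.00258), and its change after E3 was −0.29 (adjusted p = 0.203), so the probes for Rpl22 disagree in direction.
Rpl3l, which replaces Rpl3 in striated muscle, was well above background on 13 of the 15 arrays. It read −6.09, −6.54 and −7.20 at 24 h after E2, −6.22, −4.56 and −5.10 at 24 h after E3, and −5.66, −5.32 and −6.43 with vehicle, with the groups overlapping and no comparison called. No probe carried the names Rpl10l, Rpl39l, Rps4l or Rps4y.

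**Figure D1:**
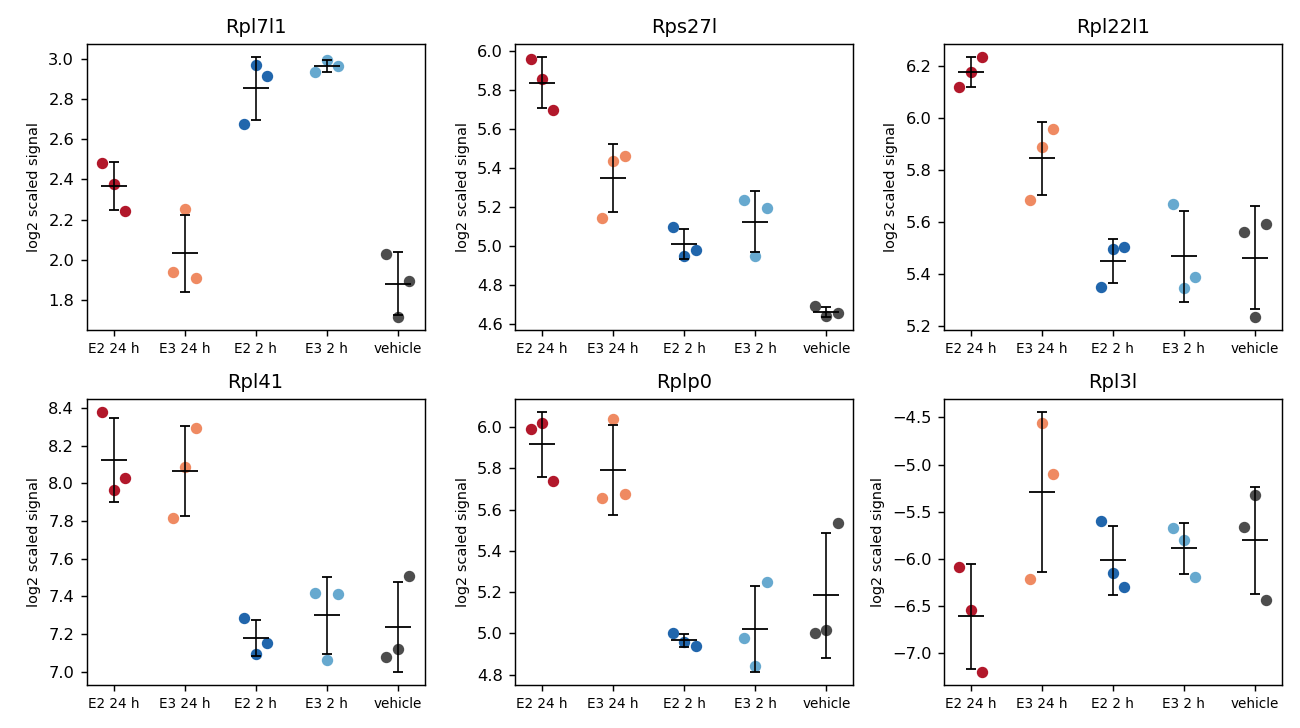
Level of 6 of the genes on each array (points, log2 signal relative to the array's 75th percentile), with the group mean and SD (bars, n = 3), at 24 h after E2 and E3, at 2 h after E2 and E3, and with vehicle. Rpl7l1 is highest at 2 h, Rps27l and Rpl22l1 are highest at 24 h after E2, Rpl41 and Rplp0 are higher at 24 h than at 2 h, and Rpl3l is dim and scattered.

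At 24 h the 79 genes lay a little above vehicle as a body on the scale of the 75th percentile, with the sign turned for both oestrogens by quantile normalization and for E2 by scaling on the other bright genes. With E2, 75 of 79 changes were positive with a median of 0.29, and 21 genes rose while 0 fell, and with E3, 78 of 79 were positive with a median of 0.38, and 20 rose while 0 fell. Changes were positive in 10003 (E2) and 10144 (E3) of all 20518 genes, and in 505 and 559 of the 618 other bright genes. Among all genes tested, 21% were called higher and 22.6% lower with E2, and 9.67% higher and 10.8% lower with E3, with medians of −0.02 and −0.01. The share of members called higher was thus 26.6% with E2 and 25.3% with E3. Among the other 618 bright genes, which were read from the same scan, 55% were called higher with E2 and 40.1% with E3, with medians of 0.43 and 0.38, so that the members' shares lay above those of all genes and below those of the other bright genes.

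The members' median at 24 h was positive with scaling on the 75th percentile (0.29 with E2 and 0.38 with E3), on array medians (0.50 and 0.52) and without scaling (0.04 and 0.04), negative with quantile normalization (−0.09 and −0.14), and −0.19 and 0.00 when arrays were scaled on the other bright genes. The calls moved with it, as the plot by scaling shows. With array medians 43 members rose and 0 fell with E2, while scaled on the other bright genes 3 rose and 20 fell. The median of all genes tested moved by over 0.1 between scalings, to 0.19 with E2 and 0.13 with E3 on array medians, to −0.27 and −0.34 without scaling, and to −0.50 and −0.38 on the other bright genes. Relative to the median of all genes the members stood at 0.31 with E2 and 0.38 with E3 under every scaling that shifts whole arrays, which by its construction cannot change that difference. After quantile normalization they stood at −0.07 and −0.11.
Across the 15 arrays the members' median level followed the scaling value itself. Its correlation with log2 of the array's 75th percentile was r = −0.92 (Spearman −0.93), r = −0.90 without the 2 arrays farthest out, and r = −0.90 after each group's mean was removed. These points share the scaling value, which is subtracted from every level, and no p is given. The members' median also followed that of the other bright genes, at r = 0.93. Both medians have the same scaling value subtracted, so part of this correlation is built in. The part of array scaling in the 24 h shift was not tested beyond these values.

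**Figure D2:**
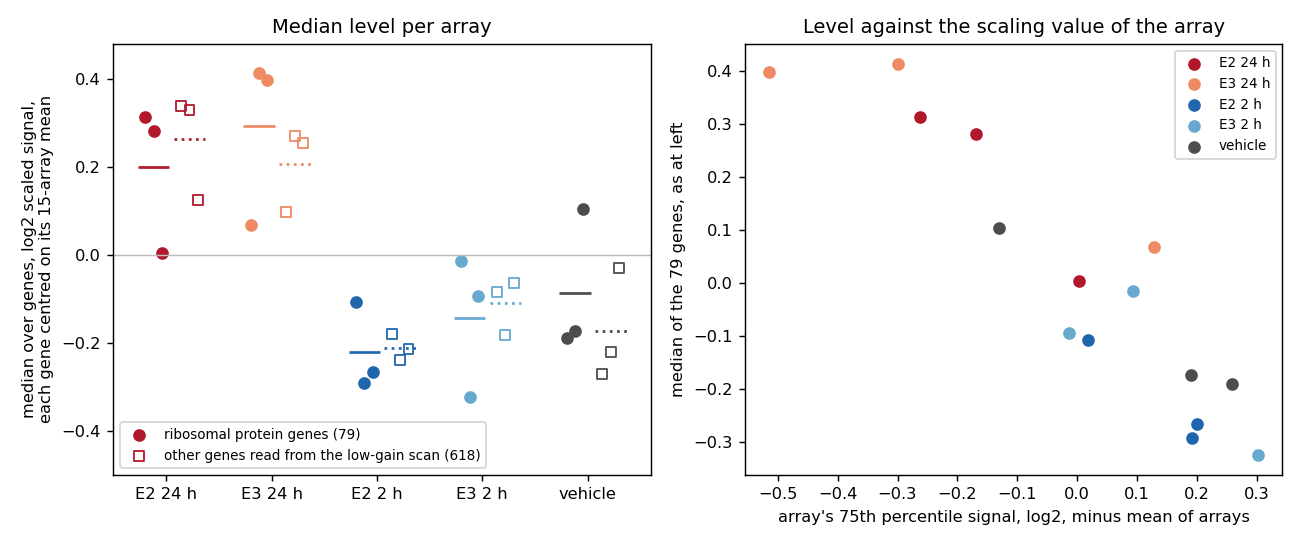
Left, median over the 79 genes (filled) and over the 618 other genes read from the low-gain scan (open) on each array, in log2 with each gene centred on its mean over 15 arrays, and group means as lines; right, the 79-gene median against the array's 75th percentile. The 24 h arrays stand higher than the 2 h arrays in both sets of genes, and arrays with a low 75th percentile have high medians.

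**Figure D3:**
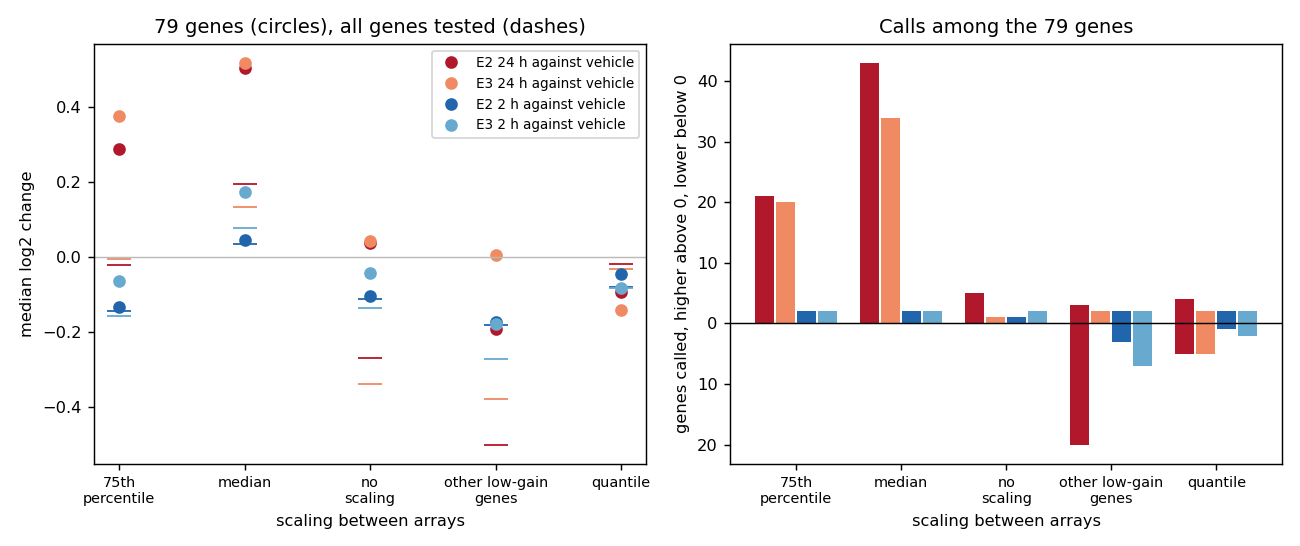
Left, median log2 change at 24 h and at 2 h after E2 and E3 against vehicle for the 79 genes (circles) and all genes tested (dashes). Right, the number of the 79 called higher or lower, each under 5 ways of scaling arrays. The E2 median at 24 h runs between −0.19 and 0.50.

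Leaving out single arrays moved the 24 h counts by over 1.5 times. With E2 the 21 rises became 12 without vehicle array 1, 13 without vehicle array 2 and 13 without E2 array 2. In these fits the share of all genes called higher moved from 21% to 17.2%, 16.7% and 17.2%. With E3 the 20 rises became 38 without E3 array 1, 6 without E3 array 2 and 9 without E3 array 3. They became 6 without vehicle array 1 and 5 without vehicle array 2. The share of all genes called higher moved from 9.67% to 12.4%, 5.92%, 6.88%, 3.46% and 3.41% in the same order. In a fit of the E3 and vehicle arrays alone, 0 members were called, where only 1 of all 20518 genes was called higher and 0 lower.

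Within the large subunit 13 of 42 genes (31%) rose with E2 (median 0.28) and 13 of 42 with E3 (0.39) at 24 h, beside 21% and 9.67% of all genes and 55% and 40.1% of the other bright genes. Rpl41, which encodes one of the shortest proteins of the ribosome, read 8.38, 7.97 and 8.03 with E2 and 7.82, 8.09 and 8.29 with E3, against 7.08, 7.12 and 7.51 with vehicle, with no overlap. It rose by 0.89 ± 0.17 after E2 (adjusted p = 0.00135) and by 0.83 ± 0.17 after E3 (adjusted p = 0.00908), and with E2 it was called under all 21 settings, at 0.41 to 1.10. Rpl14 had the largest change with E2, 1.68 ± 0.38 (adjusted p = 0.00364), from uneven arrays, 3.64, 3.66 and 2.53 with E2 against 1.54, 1.49 and 1.75 with vehicle. With E3 it read 2.38, 2.38 and 3.32, above vehicle on each array, and its change of 1.10 ± 0.38 missed the threshold (adjusted p = 0.0576).
Rpl21 had the largest rise with E3, 1.02 ± 0.31 (adjusted p = 0.0383), with arrays at 1.88, 2.68 and 3.08 against 1.31, 1.43 and 1.84 with vehicle. The call held under 9 of 21 settings, with adjusted p up to 0.139, and was lost without vehicle array 1 or 2 or without E3 array 2 or 3. Its other probe changed by −0.15 with E3 (adjusted p = 0.491). With E2 its arrays read 1.75, 2.64 and 1.73 and overlapped vehicle (0.51, adjusted p = 0.202). Rpl15 rose by 0.61 after E2 (adjusted p = 0.00564) and 0.67 after E3 (adjusted p = 0.0119), the E3 call holding under 15 of 21 settings. Rpl31, at the exit of the peptide tunnel, rose by 0.63 (adjusted p = 0.00211) and 0.62 (adjusted p = 0.0104). None of the 42 large subunit genes passed the test between E2 and E3 at 24 h.
The proteins Rpl5 and Rpl11 bind 5S ribosomal RNA and, when free, the p53 ligase Mdm2. Rpl5 changed by 0.20 ± 0.16 after E2 (adjusted p = 0.335) and 0.30 ± 0.16 after E3 (adjusted p = 0.196), and Rpl11 by 0.19 ± 0.20 (adjusted p = 0.474) and 0.46 ± 0.20 (adjusted p = 0.125), so neither was called. The core partners of paralogs Rpl3, Rpl7 and Rpl39 changed by 0.30, 0.28 and 0.41 with E2 and by 0.30, 0.44 and 0.35 with E3, and none was called. Rpl10 was called with E3 (0.46 ± 0.14, adjusted p = 0.0435) under 7 of 21 settings, with its sign turned under quantile normalization (−0.07), and not with E2 (0.35 ± 0.14, adjusted p = 0.0659).

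Within the small subunit 4 of 30 genes rose with E2 (13.3%, median 0.27) and 5 of 30 with E3 (16.7%, median 0.36) at 24 h, beside 21% and 9.67% of all genes and 55% and 40.1% of the other bright genes. Rps26, which touches the messenger RNA upstream of the start codon, read 6.01, 6.31 and 5.99 with E2 and 5.76, 6.04 and 5.98 with E3, against 5.42, 5.19 and 5.52 with vehicle. All 24 h arrays of both oestrogens lay above vehicle, by 0.73 ± 0.13 after E2 (adjusted p = 0.00101) and 0.55 ± 0.13 after E3 (adjusted p = 0.0156). Rps6, which the S6 kinases phosphorylate when cells grow, read 6.54, 6.53 and 6.44 with E2 and 6.46, 6.51 and 6.64 with E3, against 6.14, 6.29 and 6.58 with vehicle. Vehicle array 3 overlapped the oestrogen arrays, and the changes of 0.17 ± 0.13 (adjusted p = 0.29) and 0.20 ± 0.13 (adjusted p = 0.269) were not called. Rps4x, carried on the X chromosome, changed by 0.35 ± 0.26 and 0.43 ± 0.26, and Rps27a, made as a fusion with ubiquitin, by 0.25 ± 0.34 and 0.06 ± 0.34, none of them called.

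Of the stalk genes, whose proteins recruit translation factors, Rplp0 was called and Rplp1 and Rplp2 were not. Rplp0, the anchor of the stalk, read 5.99, 6.02 and 5.74 with E2 and 5.66, 6.04 and 5.68 with E3, against 5.002, 5.02 and 5.53 with vehicle. It rose by 0.73 ± 0.17 after E2 (adjusted p = 0.00408) and by 0.61 ± 0.17 after E3 (adjusted p = 0.0271), the call with E3 holding under 11 of 21 settings. The file places this probe on chromosome 8 (mm7) and RefSeq places Rplp0 on chromosome 5. A gene listed under the older symbol of Rplp0, Arbp, and placed on chromosome 5 changed by 0.20 ± 0.21 after E2 (adjusted p = 0.458) and 0.40 ± 0.21 after E3 (adjusted p = 0.189), and which RNA the Rplp0 probe detects was not tested. Rplp1 changed by 0.26 ± 0.19 after E2 (adjusted p = 0.298) and 0.50 ± 0.19 after E3 (adjusted p = 0.082), and Rplp2 by 0.29 ± 0.18 (adjusted p = 0.228) and 0.48 ± 0.18 (adjusted p = 0.0833).

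Of the members used as reference genes in quantitative PCR, 4 were followed separately beside Rplp0, which is also used so. Rpl32 was called at 24 h, at 0.45 ± 0.15 after E2 (adjusted p = 0.033) and 0.54 ± 0.15 after E3 (adjusted p = 0.0306), called under 9 of 21 settings in each, and its sign turned under quantile normalization with E3 and under scaling on the other bright genes with E2. Rpl19 changed by 0.32 ± 0.15 after E2 (adjusted p = 0.102) and 0.37 ± 0.15 after E3 (adjusted p = 0.0976), Rpl13a by 0.21 ± 0.18 (adjusted p = 0.354) and 0.31 ± 0.18 (adjusted p = 0.229), and Rps18 by 0.31 ± 0.27 (adjusted p = 0.365) and 0.36 ± 0.27 (adjusted p = 0.357). At 2 h none of the 4 was called with either oestrogen on the probe that represents it. A second, dimmer probe for Rps18 rose at 2 h by 1.00 after E2 (adjusted p = 0.000141) and 0.67 after E3 (adjusted p = 0.00227). That probe was lower than vehicle at 24 h by 0.62 after E2 (adjusted p = 0.00355) and 0.76 after E3 (adjusted p = 0.00666).

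**Figure D4:**
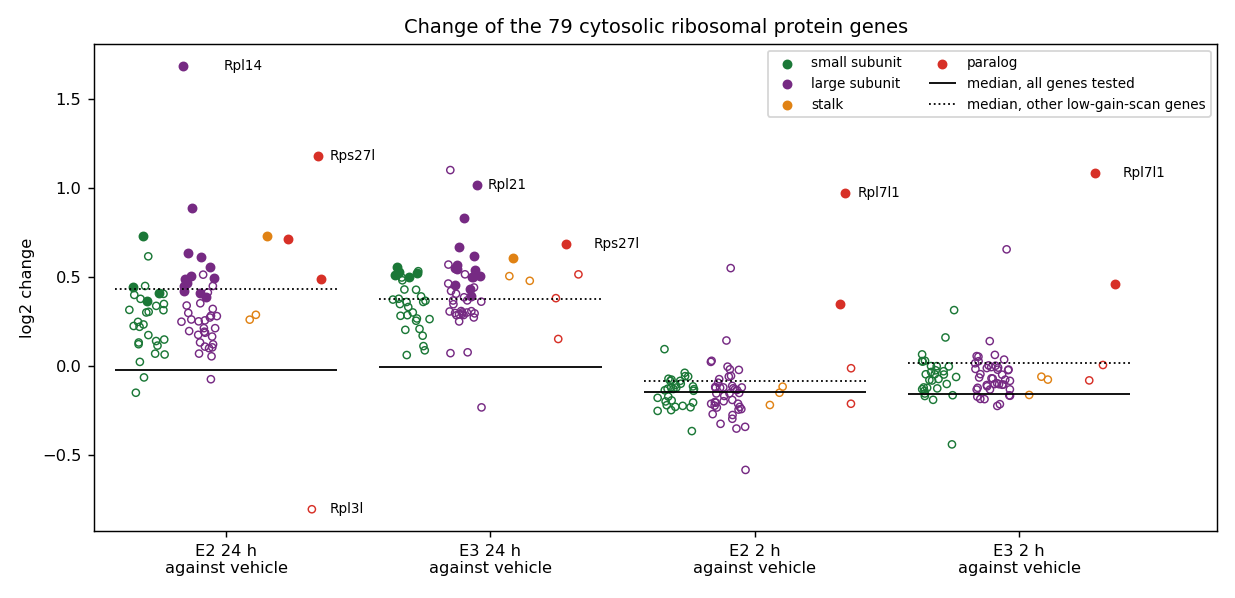
Log2 change of each of the 79 genes at 24 h after E2 and E3 and at 2 h after E2 and E3, against vehicle, by role, with filled points for adjusted p under 0.05, solid lines for the median of all genes tested and dotted lines for that of the other bright genes. At 24 h most points lie above 0 in every role, with medians of 0.29 and 0.38; at 2 h the medians are −0.13 and −0.06, the called points are those of Rpl7l1 and Rps27l, and the core genes, none called, lie between −0.58 and 0.55 (E2) and between −0.44 and 0.65 (E3).

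The 24 h and 2 h uteri of each oestrogen can be compared without the vehicle arrays. With E2, 41 of the 79 genes rose and 1 fell (Rpl7l1) at 24 h against 2 h, with a median of 0.42, where 30.4% of all genes tested were called higher and 21.9% lower. With E3, 43 rose and 1 fell (Rpl7l1), with a median of 0.44, where 29.8% were higher and 19.9% lower. Among the other bright genes 57% were called higher with E2 and 45.3% with E3, with medians of 0.45 and 0.35, against 51.9% and 54.4% of members, and the medians over all genes were 0.12 and 0.18. Quantile normalization turned the members' medians to −0.06 and −0.06, and scaling on the other bright genes gave −0.02 and 0.18.
The sign of these medians thus depends on the scaling. On the 1 slide that carried both times of E2, with 1 array at 24 h and 2 at 2 h, 77 of 79 genes were higher at 24 h. Their median was 0.57 beside 0.15 over all genes, on the same scale of the 75th percentile. Relative to the median of the other bright genes, the members stood at −0.048 on that 24 h array. On the 2 h arrays of the slide they stood at −0.052 and −0.052. With slide as a block among the oestrogen arrays, 22 members rose with E2 and 0 with E3, where 4654 and 52 of all 20518 genes rose. No slide held E3 arrays of both times, so the slide fit compares them only by way of other groups. Without single arrays the E2 count fell to 26 (2 h array 2), 27 (2 h array 3), 26 (24 h array 1) and 22 (24 h array 2), and the E3 count fell to 19 (2 h array 2), 22 (24 h array 2) and 22 (24 h array 3).
At 24 h against 2 h Rplp0 rose by 0.95 ± 0.17 after E2 (adjusted p = 0.000481) and by 0.77 ± 0.17 after E3 (adjusted p = 0.00254). Rpl41 rose by 0.95 ± 0.17 (adjusted p = 0.000535) and 0.77 ± 0.17 (adjusted p = 0.00278), and Rps26 by 0.83 ± 0.13 (adjusted p = 0.000224) and 0.68 ± 0.13 (adjusted p = 0.00127). Rps27l rose with E2 by 0.83 ± 0.12 (adjusted p = 1e-04), whereas its change with E3 was 0.22 ± 0.12 (adjusted p = 0.137).
Rpl14 rose with E2 by 1.66 ± 0.38 (adjusted p = 0.0028). Rps7, a small subunit protein, and Rpl7a, a large subunit protein, rose with E3 by 0.74 ± 0.22 (adjusted p = 0.0138) and 0.68 ± 0.19 (adjusted p = 0.011). Rps7 read 7.52, 7.76 and 8.07 at 24 h after E3, against 6.48, 7.30 and 7.35 at 2 h after E3, where the first array was low. Without that array its change was 0.46, still called, without E3 24 h array 3 it was 0.60 and not called, and the call held under 14 of 22 settings. Rps6 rose by 0.43 ± 0.13 after E2 (adjusted p = 0.0136) and 0.33 ± 0.13 after E3 (adjusted p = 0.0453), with its sign turned under quantile normalization in both, on the scale of the other bright genes with E2 and without scaling with E3. The call held under 14 of 22 settings with E2 and under 6 of 22 with E3.

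E2 and E3 were compared at the same dose and the same times, at 2 h and at 24 h, for all 79 genes, with p-values adjusted over the 20518 genes. At 2 h none of the 79 passed the test, and 0% of all genes tested were called higher and 0% lower. No member passed at an unadjusted p under 0.05 at 2 h, whereas 761 of all genes did. The median difference was −0.07, and for the difference the 95% interval stayed within 2-fold either way in 73 of the 79 genes and within 1.5-fold for 67. For all 20518 genes these counts were 16486 and 10560, and for the 618 other bright genes 610 and 510. At 24 h 1 of the 79 was higher with E2 and 0 were lower, where 8.89% of all genes were higher and 6.77% lower. The interval at 24 h lay within 2-fold for 76 genes and within 1.5-fold for 57, with a median difference of −0.08. It did so for 13864 and 6665 of all 20518 genes, and for 543 and 318 of the 618 other bright genes.
The gene that differed was Rps27l, with 5.84 ± 0.13 at 24 h after E2 and 5.35 ± 0.18 at 24 h after E3 (SD, n = 3 each). The difference was 0.49 ± 0.12 (SE, 95% interval 0.23 to 0.75, limma, adjusted p = 0.0163), and all 3 E2 arrays lay above all 3 E3 arrays. The call held under 17 of 22 settings, with differences of 0.38 to 0.58. It was lost without E2 array 1 or E2 array 2, in a fit of these groups alone and among the arrays of 1 scan day. With slide as a fixed block it was also lost (limma, adjusted p = 0.428). In that slide fit 0 of all genes tested were called, and no slide held 24 h arrays of both oestrogens. At 2 h the difference between E2 and E3 was −0.12, and the difference of differences between the times was 0.61 ± 0.17 (adjusted p = 0.0517), which missed the threshold. In that test of whether the gap between E2 and E3 changed from 2 h to 24 h, 0 of the 79 genes were called in either direction, against 3.79% of all genes higher and 2.37% lower.
At 24 h Rpl22l1 was 0.33 ± 0.13 higher after E2 and was not called (adjusted p = 0.102). Rpl7l1 was 0.33 ± 0.13 higher with E2 on the probe that represents it (adjusted p = 0.101) and 0.57 ± 0.12 higher on its second probe (adjusted p = 0.00708). Rpl3l was 1.32 lower with E2 by its means, −1.32 ± 0.42 (adjusted p = 0.0519), with overlapping arrays near background.

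A further pattern lay in the probes that do not represent a gene. It was singled out after the values were seen. The 79 genes had 52 other probes that were tested, 25 read from the low-gain scan and 27 not, and the results below are for those 27 probes, which cover 22 genes. At 2 h 12 of the 27 were higher with E2, and the same 12 were higher with E3, by 0.56 to 1.50 and by 0.54 to 1.50. Among all 30834 probes tested, 16.3% were higher at 2 h with E2 and 17% with E3. The 12 probes belong to 12 different genes, and apart from Rpl7l1 the probe that represents each of those genes was not called at 2 h. Among the 27, the second probe for Rpl22 was called lower at 2 h with E2 (−0.56, limma, adjusted p = 0.015). Of the 25 bright other probes 0 were called at 2 h.
At 24 h against vehicle 8 of the 27 probes were lower with E2 and 8 with E3, where 24% and 12.8% of all probes were lower. Called higher with E2 were probes of Rps24 (1.29), Rpl7l1 (0.82), Rpl31 (0.67), Rpl29 (0.53 and 0.50) and Rps25 (0.48). With E3, probes of Rpl31 (0.56) and Rpl29 (0.40 and 0.41) were called higher. Of the 12 probes that rose at 2 h, 7 were lower than vehicle at 24 h with E2 and 8 with E3. At 24 h against 2 h, 11 of the 27 fell with E2 and 12 with E3, where 24.1% and 22.1% of all probes fell. All of these falls were among the 12 probes picked by the same 2 h arrays, so they are not separate evidence. Probes of Rpl29 (0.64, 0.77 and 0.85), Rpl31 (0.84) and Rps25 (0.45) rose with E2 in this comparison. With E3, probes of Rpl29 (0.61 and 0.68), Rpl31 (0.58) and Rpl23 (0.58) rose.
The 12 are given here by the kind of sequence each probe was designed on, with no test of the split. Of 13 probes designed on RefSeq messenger RNAs, 2 rose at 2 h (Rps15a and Rpl7l1), and of 14 designed on other sequences, 10 rose, 8 of them among the 11 designed on RIKEN cDNA clones. The counts lay between 10 and 13 with E2 and between 8 and 13 with E3 over the scalings, background correction, array weights, blocks and arrays left out.

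The sequences of 2 of these probes are shown because, by the positions in the file (mm7), they lie wholly inside bases that another probe of the same gene skips.
Rpl11, chr4:135428479-135428538, minus strand: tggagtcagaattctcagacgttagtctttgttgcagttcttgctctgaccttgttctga
Rpl35a, chr16:32732112-32732171, plus strand: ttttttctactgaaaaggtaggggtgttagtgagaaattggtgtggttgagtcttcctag
The skipped stretch is crossed by 1 other probe in Rpl11 and by 2 in Rpl35a. The Rpl11 probe read −0.71, −0.45 and −0.71 at 24 h after E2, −0.77, −0.58 and −0.75 at 24 h after E3, 0.99, 1.13 and 1.07 at 2 h after E2, 0.66, 0.97 and 0.99 at 2 h after E3, and 0.00, −0.10 and −0.33 with vehicle. Its groups at 2 h, with vehicle and at 24 h did not overlap, in that descending order. It rose at 2 h by 1.21 after E2 (adjusted p = 2.02e-05) and 1.02 after E3 (adjusted p = 6.87e-05), while the probe that represents Rpl11 changed by −0.23 ± 0.20 and −0.11 ± 0.20 at that time.
The Rpl35a probe read −5.71, −5.87 and −5.61 at 24 h after E2, −5.87, −6.21 and −6.18 at 24 h after E3, −4.19, −4.17 and −4.12 at 2 h after E2, −4.30, −4.45 and −4.46 at 2 h after E3, and −5.42, −5.08 and −5.21 with vehicle. The same order held, with every 2 h array above every vehicle array and every 24 h array below.
The largest changes among the 12 were those of Rps12 (1.50 with E2 and 1.50 with E3) and Rpl13 (1.47 and 1.34). The Rpl13 probe, on an EST or other cDNA, read −1.51, −1.36 and −1.33 at 24 h after E2, −1.64, −1.39 and −2.04 at 24 h after E3, 0.53, 0.63 and 0.64 at 2 h after E2, 0.17, 0.53 and 0.69 at 2 h after E3, and −0.73, −0.81 and −1.08 with vehicle. It fell below vehicle at 24 h by 0.52 after E2 (adjusted p = 0.0275) and by 0.82 after E3 (adjusted p = 0.0106). The remaining ones were probes of Rps13, Rps19, Rpl27a, Rpl22l1, Rps18, Rps15a, Rps24 and Rpl7l1. Those of Rps19 and Rpl22l1 were as dim as Rpl3l, with Rps19 at −6.17, −6.74 and −6.93 with vehicle and −5.68, −5.13 and −5.23 at 2 h after E2. The Rpl35a probe shown above was also dim, at −5.42, −5.08 and −5.21 with vehicle, a range that overlaps that of Rpl3l. A probe was tested if well above background on all arrays of any group, so a dim probe could enter through its 2 h groups alone. On the slide that carried both times of E2, 11 of the 12 were lower at 24 h than at 2 h. The 2 h arrays of that slide are among those by which the 12 were picked, so this count is not separate evidence. What RNA these probes detect was not tested.

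**Figure D5:**
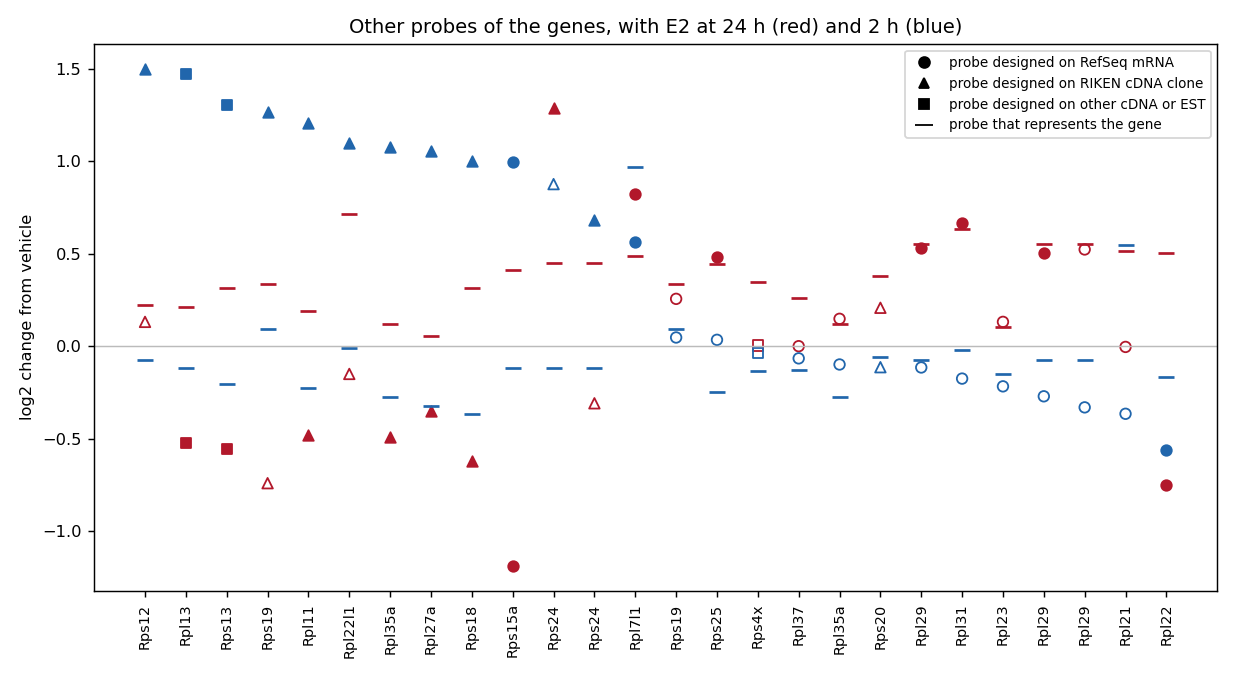
Log2 change against vehicle at 24 h (red) and 2 h (blue) after E2 of the other probes not read from the low-gain scan, by the sequence each was designed on. Filled symbols mark adjusted p under 0.05, and dashes the probe that represents the gene. Of the 27 probes, that of Rps6 is not drawn. The probes at the left rise by up to 1.50 at 2 h, while the blue dashes of the same genes lie near or below 0, except for Rpl7l1.

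Other genes of the ribosome and its control were counted from lists, on the scale of the 75th percentile alone. Among all genes tested, 21% were called higher and 22.6% lower at 24 h with E2, and 9.67% and 10.8% with E3. At 2 h these shares were 15.5% and 23.1% with E2 and 16.5% and 23.6% with E3. Most genes of the mitochondrial ribosome rose at 24 h with E2. Of its 75 genes tested, 72 were higher and 0 lower with E2 (median 0.71), and 35 were higher and 0 lower with E3 (median 0.37). At 2 h 19 of the 75 were higher and 5 lower with E2, and 25 were higher and 2 lower with E3. Between E2 and E3 at 24 h, 33 of the 75 were higher with E2 and 0 lower, where 8.89% of all genes were higher and 6.77% lower. Of the 79 cytosolic genes 1 was higher and 0 were lower, a contrast that was not itself tested.
Ribosomal genes outside the name rule gave 2 rises and 0 falls of 6 tested at 24 h with each oestrogen, Rpsa (0.82 with E2 and 0.72 with E3), a small subunit protein, and Rpl36al (1.00 and 0.67), a large subunit paralog, and no calls at 2 h. Of 22 other genes with TOP messengers, 8 rose and 0 fell at 24 h with E2, with a median of 0.29, and 8 rose against 1 that fell with E3, with a median of 0.38. They included Eef1g, a subunit of elongation factor 1 (0.93 and 0.69), and Impdh2, which makes guanine nucleotides (0.88 and 0.50). The median of these TOP genes was that of the 79 members to 2 decimals with E2 and with E3. The other bright genes had medians of 0.43 with E2 and 0.38 with E3, the latter the same to 2 decimals. At 2 h 1 of the 22 rose with each, Tcea1, a transcription elongation factor (0.45 and 0.49).
Of 25 genes that build the ribosome or signal to it, 14 rose and 2 fell at 2 h with E2, as did 15 and 2 with E3, at a time when 0 of the 75 core ribosomal proteins were called. The largest rises were those of Rrs1, which places the 5S particle in the large subunit (2.38 with E2 and 2.16 with E3), Nolc1, a nucleolar chaperone (1.84 and 1.88), Nip7, of large subunit assembly (1.38 and 1.57), and Nol5a, the older symbol of Nop56, a core protein of box C/D particles (1.31 and 1.29). At 24 h 11 rose and 2 fell with E2, as did 2 and 1 with E3.

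Markers of several cell types changed at the same times, when the shares of all genes called were those given for the lists above. At 24 h 4 of 6 myometrium markers rose with E2 and 6 of 6 with E3, with summed levels, in multiples of the 75th percentile, of 552 to 903 at 24 h after E2 and 705 to 864 at 24 h after E3, against 369 to 547 with vehicle. Of 6 stroma markers 4 rose and 2 fell with E2, as did 4 and 0 with E3 (sums of 639 to 720 and 650 to 794, against 359 to 418). At 2 h the stroma markers went the other way, with 2 of 6 lower with E2 and 5 of 6 with E3, 0 higher, and sums of 251 to 364 and 299 to 325. Of 6 epithelium markers 3 rose with E2 and 1 with E3 at 24 h (193 to 271 and 183 to 298, against 122 to 166). All 3 erythrocyte markers rose at 24 h with each oestrogen (67.7 to 117 with E2 and 55.1 to 92.1 with E3, against 31.9 to 49.2), and at 2 h 3 rose with E2 and 2 with E3 (82.0 to 103 and 61.2 to 75.4). Of 5 macrophage markers 1 rose with E2 and 4 with E3 (85.6 to 98.5 and 138 to 339, against 107 to 158). Of 4 endothelium markers 3 fell with E2 and 1 with E3 (3.94 to 4.79 and 4.46 to 5.93, against 6.21 to 7.17). Of 5 lymphocyte markers 1 fell with E2 at 24 h, and 2 fell with each oestrogen at 2 h. At 2 h 1 epithelium marker fell with E2 and 1 endothelium marker with E3, 0 myometrium and 0 macrophage markers were called, and no eosinophil, neutrophil or adipocyte marker was called at either time. The part of these cells in the changes of the ribosomal protein genes was not tested.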

How the data were processed

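Uterine RNA (500 ng, labelled with Cy3) of 5 groups of 3 arrays was measured. The values the authors deposited are scanner intensities, which, per the file headers, Feature Extraction 9.5.3.1 (9.5 per the submitters' processing notes) corrected for background and trends within each array, with no normalization between arrays. The deposited value table equals these signals. Probe positions are of build mm7, per the file headers.

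From these, 43379 non-control spots were averaged to 41174 probes, 53 probes left without a value because of flagged spots were dropped, log2 signals were scaled on each array's 75th percentile, and the brightest probe by mean stood for a gene. A gene was tested if well above background on all 3 arrays of a group. One mean per group was fitted with limma 3.58.1 in R 4.3.3 (package data.table, version 1.17.8), with Benjamini-Hochberg adjustment, and the script was tested on simulated data. The precision is limited by 3 arrays per group. Alternatives covered scaling, background (normexp, offset 50), filters, probes, batches, weights, replicate number and arrays left out; scaling on the other bright genes, no scaling, members of the low-gain scan alone and the alternatives for other probes were chosen after seeing the data. Genes named are the 5 largest calls per direction without overlap between arrays, the stalk, the paralogs and partners, Rps6, Rpl5, Rpl11, Rps27a and reference genes; other genes named were chosen after their values were seen. Members and lists were chosen with earlier results of these data known. Promoter windows are from RefSeq.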

Additional observations from a re-analysis of the deposited data

Results flagged for a closer look

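E2 and E3 gave different levels for Rps27l at 24 h, with a difference of 0.49 on the log2 scale by the test of E2 against E3. Probes other than the one that represents the gene differed by the same test for Rps20 (0.52, adjusted p = 0.03) and Rpl7l1 (0.57, adjusted p = 0.00708). The second probe of Rpl7l1 also passed the test of whether the gap between E2 and E3 changed from 2 h to 24 h, at 0.71 (limma, adjusted p = 0.0289).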

How the results depend on the processing

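The values reported were recomputed with 1 choice changed at a time. Of 628 alternative counts and medians, 508 kept within 1.5 times or 1 SD (0.16 for medians), 111 moved and 9 changed sign; of 4480 alternatives for single genes, 4073 kept direction and side of the threshold, 295 lost a call, 85 gained one and 27 turned. The cause of these moves was not tested, except that fewer arrays enter some fits. No member was saturated, so leaving out saturated members changes nothing. Limits: 3 arrays per group, vehicle on a slide of its own, scaling that the members' shift follows, and whole tissue.

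At 2 h, rises with E2 numbered 1 with no filter, with a replicate block, slide as a random block, scan day as a block or alone, no scaling, and low-gain members alone, and 10 with the mean of a gene's probes. Falls with E2 numbered 1 with quantile normalization, the strict background filter and scan day as a block, 10 with array weights, and 3 on the other bright genes. With E3, rises were 10 (mean of probes) and 1 (low-gain members), and falls 2 (quantile) and 7 (other bright genes). Median scaling turned the medians to 0.044 (E2) and 0.17 (E3). The mean of probes turned Rpl11 (0.49 and 0.45 with E2 and E3) and Rpl22l1 (0.54 with E2).

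At 24 h, rises with E2 numbered 43 (median scaling), 4 (quantile), 55 (array weights), 3 (other bright genes) and 5 (no scaling), and falls 5 (quantile), 1 (mean of probes, array weights) and 20 (other bright genes). The E2 median was 0.50, −0.093, −0.19 and 0.038 with median scaling, quantile, other bright genes and no scaling. Rises with E3 numbered 34 (median scaling), 2 (quantile, other bright genes), 11 (no filter), 12 (mean of probes), 0 (groups alone), 41 (array weights), 10 (slide), 8 and 5 (scan day as a block, scan day 1 alone) and 1 (no scaling), and falls 5 (quantile) and 1 (mean of probes). The E3 median was −0.14 (quantile), 0.0049 (other bright genes) and 0.043 (no scaling). With groups alone and E3, 1 of all 20518 genes was called higher and 0 lower. Turned genes were Rpl22 (−0.12, mean of probes), Rpl32 (−0.033) and Rps6 (−0.31, other bright genes) with E2, and Rpl10 (−0.070) and Rpl32 (−0.021, quantile) with E3.

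At 24 h against 2 h, rises with E2 numbered 8 (quantile), 68 (array weights), 22 (slide), 25 (scan day 1), 7 (other bright genes) and 9 (no scaling), falls 6, 8, 4 and 0 (quantile, mean of probes, other bright genes, low-gain members), and medians −0.060, −0.017 and 0.14 (quantile, other bright genes, no scaling). With E3, rises were 19 (median scaling), 5 (quantile), 15 (groups alone), 0 (slide), 20 (scan day 1), 13 (other bright genes) and 1 (no scaling), falls 4, 11, 0 and 0 (quantile, mean of probes, slide, low-gain members), and medians −0.061, 0.20, 0.18 and 0.083 (quantile, slide, other bright genes, no scaling). With E2, quantile normalization turned Rpl19 (−0.094), Rpl7 (−0.062), Rps27 (−0.54) and Rps6 (−0.10), scaling on other bright genes Rpl19 (−0.027), Rpl7 (−0.037) and Rps6 (−0.015), and the mean of probes Rpl11 (−0.63), Rpl22l1 (−0.26) and Rps18 (−0.15). With E3, quantile turned Rpl11 (−0.054), Rpl22l1 (−0.016), Rpl7 (−0.15), Rplp2 (−0.043), Rps4x (−0.45) and Rps6 (−0.090), the mean of probes Rpl11 (−0.50) and Rpl22l1 (−0.67), and no scaling Rps6 (−0.023).

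For E2 against E3, the 24 h count of genes higher was 4 (mean of probes), 2 (array weights) and 0 (groups alone, slide, scan day 1), and of genes lower 1 (quantile) and 2 (other bright genes); slide as a block moved the 2 h median to −0.33. For the change of that gap between the times, 1 gene was called with median scaling, quantile, normexp, the strict filter or array weights, and the median was 0.37 with slide and −0.18 on other bright genes.

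Leaving out arrays gave rises of 1 to 1 (E2) and 2 to 3 (E3) at 2 h, 12 to 28 and 5 to 38 at 24 h, 22 to 52 and 19 to 60 at 24 h against 2 h, 0 to 2 for E2 against E3 at 24 h and 0 to 1 for the change of the gap, with falls of 0 to 1 at 2 h with E2 and 0 to 1 for E2 against E3. Replicate numbers did not pair arrays: same-numbered arrays had a median correlation of deviations of −0.02 (−0.22 to 0.20), and 5 of 15 correlated best with their own number. With the replicate block, rises were 1 and 2 at 2 h, 19 and 14 at 24 h, and 33 and 38 at 24 h against 2 h with E2 and E3, and 1 gene was higher with E2 than E3 at 24 h.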
